A study of Drosophila melanogaster with 6 samples.

Results

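The machinery that condenses, attaches, pulls apart and finally divides mitotic chromosomes was followed through 35 genes for condensin, kinetochore, spindle checkpoint, spindle, centrosome and cytokinesis proteins in cells of the Drosophila wing imaginal disc that expressed RasV12. The genes were taken from the deposited count table by their symbols, and all 35 were found among its 14233 genes. At mitosis, condensin rings compact each chromosome, kinetochores assembled on centromeres bind spindle microtubules that grow from centrosomes, and the spindle checkpoint holds back the anaphase-promoting complex until every kinetochore is attached. Securin is then destroyed, separase opens cohesin, and the central spindle positions a contractile ring that closes between the daughter cells. The wing disc is a growing larval epithelium in which many cells still divide, and in flies many of these transcripts are made ahead of mitosis under the control of E2F, Dp and the Myb-MuvB complex.

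RasV12 is Ras locked in its active state by a mutation. It was compared with a control construct that the labels call GFP-i, with 3 libraries of each. Both genotypes carried Ap>Gal4, a driver active in the dorsal compartment of the disc, the membrane-bound red reporter myrT and TubGal80ts, a temperature-sensitive repressor of Gal4. Larvae spent 6 days at 18 °C and then 3 days at 29 °C, and discs were taken at the wandering stage, so the RasV12 cells had been exposed to the transgene for the last 3 days only. Dorsal cells were sorted by flow cytometry, RNA was prepared from 150000 cells, and libraries were made from the 3' ends of transcripts. Whether the replicates are separate batches of larvae is not given in the labels. The p-values therefore cover only the spread among these 6 libraries, which may be technical.

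Libraries held 11070295 to 15581752 counts. Levels are given as CPM, counts scaled to library depth after TMM scaling between libraries, and 3 counts, taken as the floor of detection, corresponded to 0.177 to 0.281 CPM (counting error only). All 35 mitotic genes passed the filter on low counts, as did 9134 genes in all. Together the 35 genes took 938 to 1041 CPM in the RasV12 libraries and 1094 to 1255 CPM in the GFP-i libraries, so the summed ranges did not overlap. For the 32 genes other than condensin the summed ranges did overlap, at 815.8 to 929.9 CPM in RasV12 and 882.7 to 1052 CPM in GFP-i. RasV12 replicate 2 stood apart from the other RasV12 libraries along the second principal component of the 35 genes (23.5% of their variance). The highest RasV12 value was in replicate 1 for 17 genes, in replicate 2 for 14 and in replicate 3 for 4, and the lowest was in replicate 1 for 10, in replicate 2 for 8 and in replicate 3 for 17. GFP-i replicate 2 was the lowest GFP-i library for 26 of the 35. Over all tested genes the genotypes were separated along the first principal component (58.8% of the variance). The dorsal driver gene ap was measured in all 6 libraries, and the wing disc and dorsal markers summed to 1931 to 2111 CPM in RasV12 cells, against 1896 to 2034 CPM in GFP-i cells, although nub, a wing pouch gene, was lower in RasV12 (log2 fold change -3.58 ± 0.14, edgeR adjusted p = 3.14e-07).

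The genes that fell in RasV12 cells were mainly those of condensin. They were barr, glu and SMC2, which encode 3 of its subunits, and the centrosome scaffold gene spd-2 was the only other member past the threshold, an edgeR quasi-likelihood adjusted p under 0.05 with Benjamini-Hochberg adjustment over all tested genes. Thus 4 of 35 genes fell (11.4%), against 5.68% of all tested genes, and without the 3 condensin genes it was 1 of 32 (3.12%). The genes left out hold 3 of the 4 calls, and the groups were chosen with earlier results known. The lower share therefore followed from that choice. None rose (0 of 35), against 9.15% of all tested genes. An unadjusted p under 0.05 was reached by 10 of the 35 genes (28.6%), 9 lower and 1 higher (pim), a share close to the 28.3% of all tested genes. DESeq2 and limma-voom also called 0 higher. The genes called lower by limma-voom were the same 4, and DESeq2 called these 4 and feo, a central spindle gene. The median log2 fold change of the 35 genes, RasV12 over GFP-i, was -0.16, compared with 0.02 over all tested genes, and it was -0.13 for the 32 genes other than condensin. It depended on the libraries, being -0.04 when RasV12 replicate 3 was left out and -0.28 when GFP-i replicate 2 was. With both of these left out, 2 of the 35 genes were called lower, barr and glu, against 2.68% of all tested genes. With scaling by library size only, 9 of the 35 genes and 9.97% of tested genes were lower and 6.73% of tested genes higher; fzy, sub, asp, ncd and feo were the genes added. RNA was measured from a fixed number of sorted cells, in which fewer mitotic or dividing cells and less RNA per cell cannot be told apart.

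**Figure D1:**
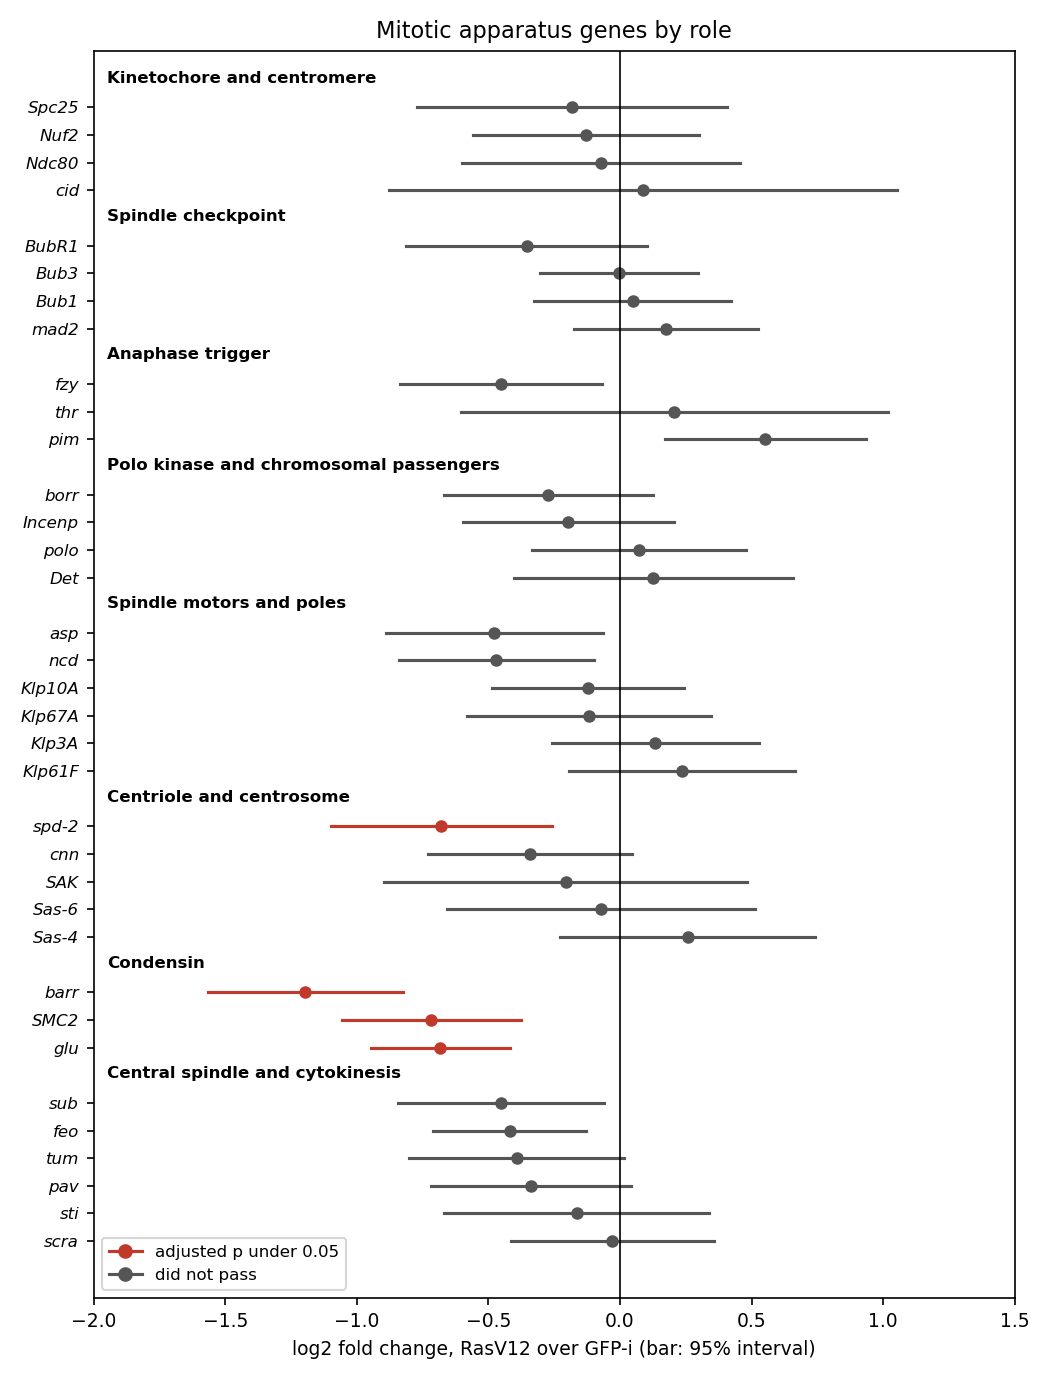
Log2 fold change of each of the 35 genes, RasV12 over GFP-i, on the x axis, with genes grouped by role on the y axis; bars are 95% intervals from the edgeR fit with 3 libraries per group, and red marks an adjusted p under 0.05. The condensin genes and spd-2 lie furthest to the left, between -1.20 and -0.68, while most other intervals cross 0.

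Most of the other genes were measured closely enough to bound the change. For 30 of the 35 genes (85.7%) the 95% interval of the log2 fold change, which is not adjusted for the number of genes, lay within 1 unit of 0, so that neither a doubling nor a halving fell inside it. The same held for 58.2% of all tested genes. The 5 others were barr, SMC2 and spd-2, whose intervals reached below -1, and the low-count genes cid and thr. An interval within 0.5 unit of 0 was found for 5 genes (14.3%), Bub1, Bub3, polo, Klp10A and scra, a share close to the 13.7% of all tested genes. The 3 RasV12 values lay below all 3 GFP-i values for 9 genes (25.7%), compared with 15.1% of tested genes, and above them for 2 genes (5.71%), mad2 and pim, compared with 18.6% of tested genes. The 9 were the 4 genes past the threshold with ncd, asp, tum, feo and sub.

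Condensin is a ring built on a pair of SMC proteins, encoded by SMC2 and glu (SMC4), and closed in its condensin I form by barr, the kleisin subunit. The gene barr (2L, 20058163 to 20061370, minus strand, dm6) was measured at 11.1, 14.1 and 11.4 CPM in RasV12 replicates 1, 2 and 3 and at 26.3, 28.2 and 29.1 CPM in GFP-i replicates 1, 2 and 3. Every RasV12 value was far below every GFP-i value, and the libraries of each genotype lay close together. The mean was 12.2 ± 1.63 CPM in RasV12 cells, against 27.9 ± 1.40 CPM in GFP-i cells (SD, n = 3 each), a log2 fold change of -1.20 ± 0.17 (SE; 95% interval from -1.57 to -0.83; edgeR adjusted p = 0.00105), which leaves 43.6% of the GFP-i level.

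For glu (2L, 16733617 to 16738388, minus strand, dm6) the RasV12 libraries gave 68.7, 63.4 and 67.6 CPM, against 102, 108 and 109 CPM in the GFP-i libraries. The groups were well separated, with less scatter relative to the mean than for barr, the coefficient of variation of glu being 4.22% in RasV12 and 3.53% in GFP-i. Its level averaged 66.5 ± 2.81 CPM in RasV12 cells, against 107 ± 3.77 CPM in GFP-i cells (SD, n = 3 each), a log2 fold change of -0.68 ± 0.12 (SE; 95% interval from -0.95 to -0.42; edgeR adjusted p = 0.00387). The 3' end of glu overlaps CG17904 on the other strand by 8 bases, and CG17904 had 700 counts in all 6 libraries together, against 7247 for glu, with a log2 fold change of -0.06.

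SMC2 (2R, 14848621 to 14852653, minus strand, dm6) was measured at 45.4, 33.9 and 43.3 CPM in RasV12 and at 62.6, 74.4 and 64.6 CPM in GFP-i. All RasV12 values lay below all GFP-i values, and replicate 2 was the extreme library of each genotype, the lowest in RasV12 and the highest in GFP-i. The means were 40.9 ± 6.10 CPM in RasV12 cells, against 67.2 ± 6.35 CPM in GFP-i cells (SD, n = 3 each), with a log2 fold change of -0.72 ± 0.15 (SE; 95% interval from -1.06 to -0.38; edgeR adjusted p = 0.0114). The calls of barr and glu held in all 16 alternative settings and that of SMC2 in 14. SMC2 missed the threshold with GFP-i replicate 2 and RasV12 replicate 3 both left out (edgeR adjusted p = 0.0573). Among the genes with deposited counts, none overlaps barr, SMC2 or spd-2.

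**Figure D2:**
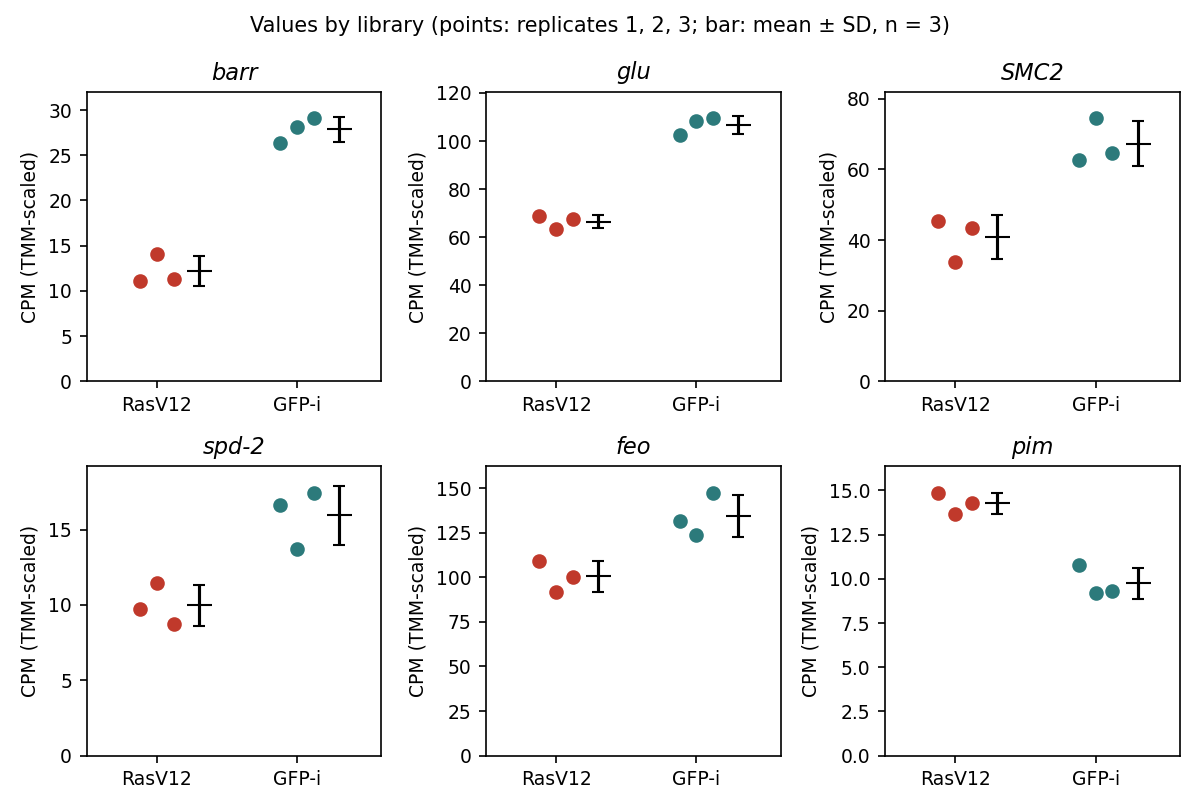
TMM-scaled CPM (y axis, from 0) in each library for the 4 genes past the threshold and for feo and pim, which missed it; points are replicates 1, 2 and 3 from left to right, with RasV12 in red and GFP-i in teal, and bars show the mean ± SD (n = 3). The groups do not overlap in any panel, and pim is the one gene of the 6 with the RasV12 values on top.

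The other condensin subunits, listed with cohesin as neighbouring machinery, did not pass the test. Cap-G and Cap-D2, which complete condensin I, had log2 fold changes of -0.45 ± 0.17 and -0.44 ± 0.22 (edgeR adjusted p = 0.123 and 0.218). Cap-G was at 21.2, 24.5 and 17.9 CPM in RasV12 and 29.4, 25.3 and 32.03 CPM in GFP-i, with no overlap, whereas Cap-D2 was at 14.2, 20.3 and 13.9 CPM in RasV12 and 21.8, 17.4 and 26.3 CPM in GFP-i, with overlap through RasV12 replicate 2. Cap-H2 and Cap-D3, found only in condensin II, had log2 fold changes of 0.37 ± 0.23 and 0.22 ± 0.26 (edgeR adjusted p = 0.327 and 0.639). Thus the 5 condensin I genes all lay below 0 and the 2 genes particular to condensin II above it, in every alternative setting in which they were tested. This split was seen after the values were known, and the difference was not tested. Cap-H2 and Cap-D3 each overlap a more abundant gene on the other strand, TfIIFbeta (135 bases) and CG7277 (1604 bases). TfIIFbeta and CG7277 had log2 fold changes of -0.43 and -0.34, and without a stated strand setting the reads there cannot be told apart.

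Among the 13 cohesin and non-SMC condensin genes, SA, a core cohesin subunit, was the only one past the threshold (7.69%, against 5.68% lower among all tested genes). It was measured at 15.5, 15.6 and 16.9 CPM in RasV12 and 25.4, 27.8 and 28.4 CPM in GFP-i, with no overlap, and fell, with a log2 fold change of -0.77 ± 0.15 (SE; adjusted p = 0.00754 in edgeR). With GFP-i replicate 2 and RasV12 replicate 3 both left out, SA no longer passed (edgeR adjusted p = 0.0506). The other core subunits SMC1, SMC3 and vtd, the kleisin that separase cuts, had log2 fold changes of -0.33 ± 0.14, -0.37 ± 0.19 and 0.01 ± 0.13. The median of the list was -0.10, with 10 of 13 below 0, against 4408 of all 9134 tested genes. It was -0.31 without RasV12 replicate 2, with 8 of 13 below 0, and between -0.27 and -0.11 without any one of the 5 other libraries.

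**Figure D3:**
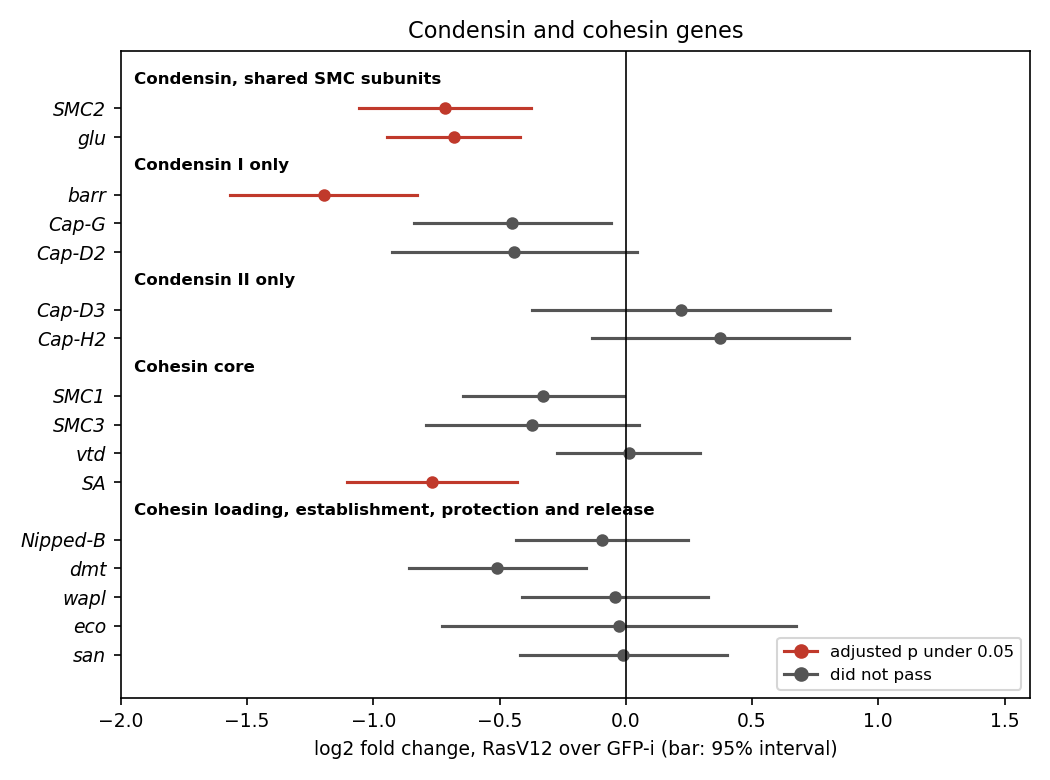
Log2 fold change (x axis, RasV12 over GFP-i) of condensin and cohesin genes with 95% intervals from the edgeR fit (3 libraries per group), grouped by complex on the y axis; red marks an adjusted p under 0.05. The 3 condensin genes past the threshold and SA lie between -1.20 and -0.68, and the condensin II genes Cap-D3 and Cap-H2 lie above 0 with intervals that cross it.

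None of the 4 kinetochore and centromere genes passed the test. Spc25, Nuf2 and Ndc80 encode subunits of the Ndc80 complex, which couples kinetochores to spindle microtubules. Spc25 stood at 8.64, 13.5 and 8.11 CPM in RasV12 and at 12.2, 8.31 and 13.7 CPM in GFP-i. The groups overlapped widely, with RasV12 replicate 2 inside the GFP-i range, and the log2 fold change was -0.18 ± 0.26 (SE; adjusted p = 0.700 in edgeR). Nuf2 had 12.99, 12.4 and 9.98 CPM in RasV12 and 11.96, 11.7 and 15.03 CPM in GFP-i, again with overlap, and a log2 fold change of -0.13 ± 0.19 (SE; adjusted p = 0.709 in edgeR). Its 3' end overlaps the more abundant gene Sem1 by 37 bases on the other strand, and without a stated strand setting the reads there cannot be told apart. Ndc80 had a log2 fold change of -0.07 ± 0.24. The centromeric histone gene cid had 12 to 33 counts in RasV12 and 14 to 28 in GFP-i, and its interval ran from -0.88 to 1.05, so that a doubling lay inside it at this depth.

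The 4 spindle checkpoint genes also gave no call. BubR1, a kinase-related part of the complex that inhibits the anaphase-promoting complex, was measured at 8.86, 12.2 and 9.84 CPM in RasV12 and 14.5, 10.7 and 14.2 CPM in GFP-i. Only RasV12 replicate 2 reached into the GFP-i range, and the log2 fold change was -0.35 ± 0.21 (SE; adjusted p = 0.302 in edgeR). For mad2, whose protein sequesters Fzy, values were 18.004, 16.2 and 15.9 CPM in RasV12 and 14.7, 14.4 and 15.3 CPM in GFP-i. Every RasV12 value exceeded every GFP-i value, but by little, and the log2 fold change was 0.17 ± 0.16 (SE; adjusted p = 0.517 in edgeR). CG5537, which overlaps the 3' end of mad2 by 94 bases on the other strand, had more counts than mad2 and a log2 fold change of 0.15. Bub1 and Bub3 were close to equal in both genotypes, with log2 fold changes of 0.05 ± 0.17 (95% interval from -0.33 to 0.42) and -0.004 ± 0.14 (from -0.31 to 0.30).

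The genes that trigger anaphase differed in sign, and none passed. The gene pim encodes securin, the inhibitor of separase, and stood at 14.9, 13.7 and 14.3 CPM in RasV12 and 10.8, 9.19 and 9.29 CPM in GFP-i. It was the member with the largest positive log2 fold change, 0.55 ± 0.17 (SE; 95% interval from 0.17 to 0.93), without overlap between the genotypes, and it missed the threshold narrowly (edgeR adjusted p = 0.0583). When only genes with at least 10 CPM in 3 libraries were tested, pim passed (edgeR adjusted p = 0.0384), and it passed under no other of the 16 alternatives. For fzy, the Cdc20 activator of the anaphase-promoting complex, the values were 38.5, 30.9 and 29.5 CPM in RasV12 and 45.5, 37.7 and 52.3 CPM in GFP-i. They overlapped between RasV12 replicate 1 and GFP-i replicate 2, and the log2 fold change was -0.45 ± 0.17 (SE; adjusted p = 0.116 in edgeR). The 3' end of fzy overlaps that of cact, a more abundant gene on the other strand, by 62 bases, and cact had a log2 fold change of -0.29. Separase, thr, had 39 to 55 counts in RasV12 and 29 to 58 in GFP-i, with an interval from -0.60 to 1.02 that likewise held a doubling. In the surrounding list of 10 tested genes for the anaphase-promoting complex, 0 were called by edgeR, DESeq2 or limma-voom, and 1 had an unadjusted p under 0.05, the ubiquitin-conjugating enzyme gene vih (49.3, 36.6 and 51.5 CPM in RasV12 and 61.6, 66.5 and 56.4 CPM in GFP-i; log2 fold change -0.42 ± 0.16, edgeR adjusted p = 0.111).

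Polo kinase and the chromosomal passenger complex, which acts at centromeres and later at the central spindle, showed no call among their 4 genes. The Borealin gene borr was measured at 21.2, 17.99 and 15.6 CPM in RasV12 and 24.9, 19.9 and 21.4 CPM in GFP-i. The ranges overlapped, and the log2 fold change was -0.27 ± 0.18 (SE; adjusted p = 0.361 in edgeR). Incenp, the scaffold of the complex, stood at 77.7, 48.3 and 57.2 CPM in RasV12 and 69.8, 64.4 and 75.8 CPM in GFP-i, with a log2 fold change of -0.20 ± 0.18 (SE; adjusted p = 0.526 in edgeR). RasV12 replicate 1 was the highest of the 6 libraries for Incenp and RasV12 replicate 2 the lowest, so the genotype ranges overlapped entirely. For polo the log2 fold change was 0.07 ± 0.18 (95% interval from -0.33 to 0.48), and for Det, the fly Survivin, it was 0.13 ± 0.24.

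Of the 6 genes for spindle motors and poles, 0 passed and 4 had negative log2 fold changes. The minus-end-directed motor gene ncd had 19.7, 19.6 and 16.005 CPM in RasV12 and 27.8, 22.8 and 25.98 CPM in GFP-i. The groups did not overlap, and the log2 fold change was -0.47 ± 0.17 (SE; adjusted p = 0.0916 in edgeR). For asp, whose protein focuses microtubules at spindle poles, values were 8.13, 8.997 and 8.24 CPM in RasV12 and 12.04, 10.4 and 12.9 CPM in GFP-i, also without overlap, with a log2 fold change of -0.48 ± 0.18 (SE; adjusted p = 0.121 in edgeR). Klp61F, the bipolar motor that pushes the poles apart, had the highest log2 fold change of the group, 0.24 ± 0.19. The chromokinesin Klp3A gave 0.13 ± 0.18, and the microtubule-depolymerizing or length-controlling motors Klp10A and Klp67A gave -0.12 ± 0.16 and -0.12 ± 0.21. Among 17 other tested genes of spindle microtubules 0 were called by edgeR, DESeq2 or limma-voom, with 2 at an unadjusted p under 0.05. The lowest p of them belonged to tacc, a microtubule-stabilizing centrosome protein gene, at 73.8, 89.6 and 77.9 CPM in RasV12 and 56.3, 63.95 and 63.1 CPM in GFP-i (log2 fold change 0.40 ± 0.13, edgeR adjusted p = 0.0784).

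The 5 centriole and centrosome genes included 1 call. The scaffold gene spd-2 (3L, 16591207 to 16595014, minus strand, dm6), needed to recruit the pericentriolar material, was measured at 9.73, 11.4 and 8.73 CPM in RasV12 and 16.6, 13.7 and 17.4 CPM in GFP-i. RasV12 values all lay below GFP-i values, the closest being replicate 2 of each genotype. The mean was 9.96 ± 1.37 CPM in RasV12 cells, against 15.9 ± 1.95 CPM in GFP-i cells (SD, n = 3 each), a log2 fold change of -0.68 ± 0.19 (SE; 95% interval from -1.10 to -0.26; edgeR adjusted p = 0.0368). The call was lost on leaving out replicate 1 or 3 of RasV12, replicate 1 or 3 of GFP-i, or both GFP-i replicate 2 and RasV12 replicate 3, at edgeR adjusted p of 0.0848 to 0.131. Centrosomin, cnn, which Spd-2 helps to assemble around the centriole, had 14.4, 14.9 and 16.3 CPM in RasV12 and 21.3, 15.97 and 20.6 CPM in GFP-i. GFP-i replicate 2 lay within the RasV12 range, and the log2 fold change was -0.34 ± 0.17 (SE; adjusted p = 0.236 in edgeR).

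The genes for centriole duplication gave smaller log2 fold changes. These were -0.21 ± 0.31 for SAK, the kinase that starts duplication, -0.07 ± 0.26 for Sas-6, which forms the cartwheel, and 0.26 ± 0.22 for Sas-4, which adds the centriole wall. SAK and Sas-6 each overlap a gene of higher count at their 3' end on the other strand, M6 and CG15525. In the list of 16 further centrosome and gamma-tubulin genes, asl was the single call (6.25%, against 5.68% lower among all tested genes). It encodes the centriolar protein that recruits SAK, was at 16.8, 12.2 and 16.2 CPM in RasV12 and 23.8, 22.9 and 26.1 CPM in GFP-i, without overlap, and fell, with a log2 fold change of -0.68 ± 0.18 (SE; adjusted p = 0.0282 in edgeR). This call was lost on leaving out some single libraries, holding in 3 of 6 such fits (edgeR adjusted p = 0.0388 to 0.0837).

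For cytokinesis, all 6 genes of the central spindle and contractile ring had negative log2 fold changes, between -0.45 and -0.03. So had 25 of all 35 members and 4408 of the 9134 tested genes. None of the 6 passed. The microtubule bundler gene feo came closest, at 109, 92.03 and 100.3 CPM in RasV12 and 132, 124 and 148 CPM in GFP-i. The genotypes did not overlap, and the log2 fold change was -0.42 ± 0.13 (SE; 95% interval from -0.71 to -0.13; edgeR adjusted p = 0.0589). It passed in 6 of the 16 alternative settings, DESeq2 among them (adjusted p = 0.0221). The kinesin gene sub, which acts in the central spindle, had 9.87, 9.28 and 10.4 CPM in RasV12 and 12.6, 12.8 and 15.1 CPM in GFP-i, again without overlap, and a log2 fold change of -0.45 ± 0.18 (SE; adjusted p = 0.123 in edgeR). The genes for the subunits of centralspindlin, tum and pav, gave -0.39 ± 0.18 and -0.34 ± 0.17 (edgeR adjusted p = 0.193 and 0.228). Citron kinase, sti, gave -0.16 ± 0.23, and anillin, scra, gave -0.03 ± 0.17, the value nearest 0. Without RasV12 replicate 3 the value of scra was 0.10, so 5 of 6 were then negative, and in the 15 other alternatives all 6 were.

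Most other cytokinesis genes, mainly of the actomyosin ring and membrane traffic, were on the other side of 0. The exceptions were pbl and fwd, with log2 fold changes of -0.09 ± 0.20 and -0.11 ± 0.15. Of 12 tested, 10 had positive log2 fold changes, against 4726 of all 9134 tested genes. The median of the 12 was 0.20, compared with -0.37 for the 6 genes above. With scaling by library size only, 7 of 12 were positive and the median was 0.04. The count was also 7 of 12 without RasV12 replicate 2 (median 0.14), and the median was 0.13 without GFP-i replicate 2, with 8 of 12 positive. The difference between the 2 lists was not tested. Rho1, the GTPase that drives ring contraction, was the single call (8.33%, against 9.15% higher among all tested genes). It was at 304, 299.6 and 331 CPM in RasV12 and 164, 172 and 182 CPM in GFP-i. The genotypes were well separated, and Rho1 rose, with a log2 fold change of 0.85 ± 0.12 (SE; adjusted p = 0.00101 in edgeR), a call that held in all 16 alternative settings. The formin gene dia, named after its values were seen, lay just outside the threshold at 26.1, 37.5 and 27.2 CPM in RasV12 and 21.2, 13.5 and 19.9 CPM in GFP-i (log2 fold change 0.73 ± 0.22, edgeR adjusted p = 0.0501).

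Further kinetochore genes gave 2 calls among 16, 1 lower and 1 higher (6.25% each), against 5.68% lower and 9.15% higher over all tested genes. Spindly, which links dynein to kinetochores, was at 6.17, 4.69 and 6.93 CPM in RasV12 and 10.4, 9.55 and 10.6 CPM in GFP-i, without overlap, and fell, with a log2 fold change of -0.77 ± 0.21 (SE; adjusted p = 0.0362 in edgeR). Its call held in 1 of the 6 fits that left out a single library (adjusted p = 0.0452 to 0.103). Nnf1b, a subunit of the Mis12 complex, rose on few counts, with 16 to 23 counts in each RasV12 library and 4 to 10 in each GFP-i library (log2 fold change 1.46 ± 0.43, edgeR adjusted p = 0.0446). That call held in none of the 6 such fits (adjusted p = 0.084 to 0.211). Its related copy Nnf1a had a log2 fold change of -0.54 ± 0.20 (edgeR adjusted p = 0.101).

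Genes upstream of the mitotic machinery were counted as context. Of 11 tested genes for entry into mitosis, 2 fell (18.2%) and none rose, against 5.68% and 9.15% of all tested genes. The Cdc25 phosphatase gene stg, which releases Cdk1 from inhibition and whose transcription times mitosis in flies, stood at 439.9, 370.5 and 365 CPM in RasV12 and 778, 907 and 856 CPM in GFP-i, with a log2 fold change of -1.11 ± 0.13 (SE; adjusted p = 3.14e-04 in edgeR). It passed in all 16 alternative settings. The phosphatase inhibitor gene endos was at 81.5, 70.4 and 87.7 CPM in RasV12 and 109, 121 and 103 CPM in GFP-i (log2 fold change -0.48 ± 0.14, edgeR adjusted p = 0.0415), and its call was lost in 5 of the 6 fits that left out a single library (adjusted p = 0.0599 to 0.104). Cdk1 itself and the mitotic cyclins CycA, CycB and CycB3 had log2 fold changes of -0.18 ± 0.16, -0.26 ± 0.14, -0.49 ± 0.24 and -0.24 ± 0.19, none past the threshold. Of the 9 Myb-MuvB and E2F genes 0 were called by edgeR and limma-voom and 2 by DESeq2, with 3 at an unadjusted p under 0.05 and a median of -0.33. The lowest p among them was that of Dp, the partner of E2F, at 73.2, 53.98 and 67.8 CPM in RasV12 and 83.7, 92.1 and 88.3 CPM in GFP-i (log2 fold change -0.44 ± 0.14, edgeR adjusted p = 0.0730).

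The 35 genes varied among replicates about as much in either genotype, with a median coefficient of variation of 13.7% in RasV12 and 11.6% in GFP-i. In RasV12 the variation was uneven. RasV12 replicate 2 carried the highest value of all 6 libraries for polo (81.7, 129.5 and 86.8 CPM in RasV12, against 96.4, 85.996 and 101 CPM in GFP-i) and for Det (10.4, 19.3 and 12.1 CPM in RasV12, against 12.8, 11.8 and 13.5 CPM in GFP-i). The same library was highest for SAK (6.53, 13.8 and 6.24 CPM in RasV12, against 11.5, 8.96 and 9.97 CPM in GFP-i) and for sti (20.98, 33.6 and 18.6 CPM in RasV12, against 27.5, 24.4 and 29.99 CPM in GFP-i). Without that library the log2 fold change of polo was -0.16 and that of Det -0.18, both of the opposite sign to the values above. In that fit SAK was at -0.67, with an edgeR adjusted p of 0.0617. In GFP-i, thr varied most, from 1.71 CPM in replicate 2 to 4.38 CPM in replicate 3. The condensin genes did not share this pattern, since RasV12 replicate 2 was highest for barr and lowest for glu and SMC2.

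**Figure D4:**
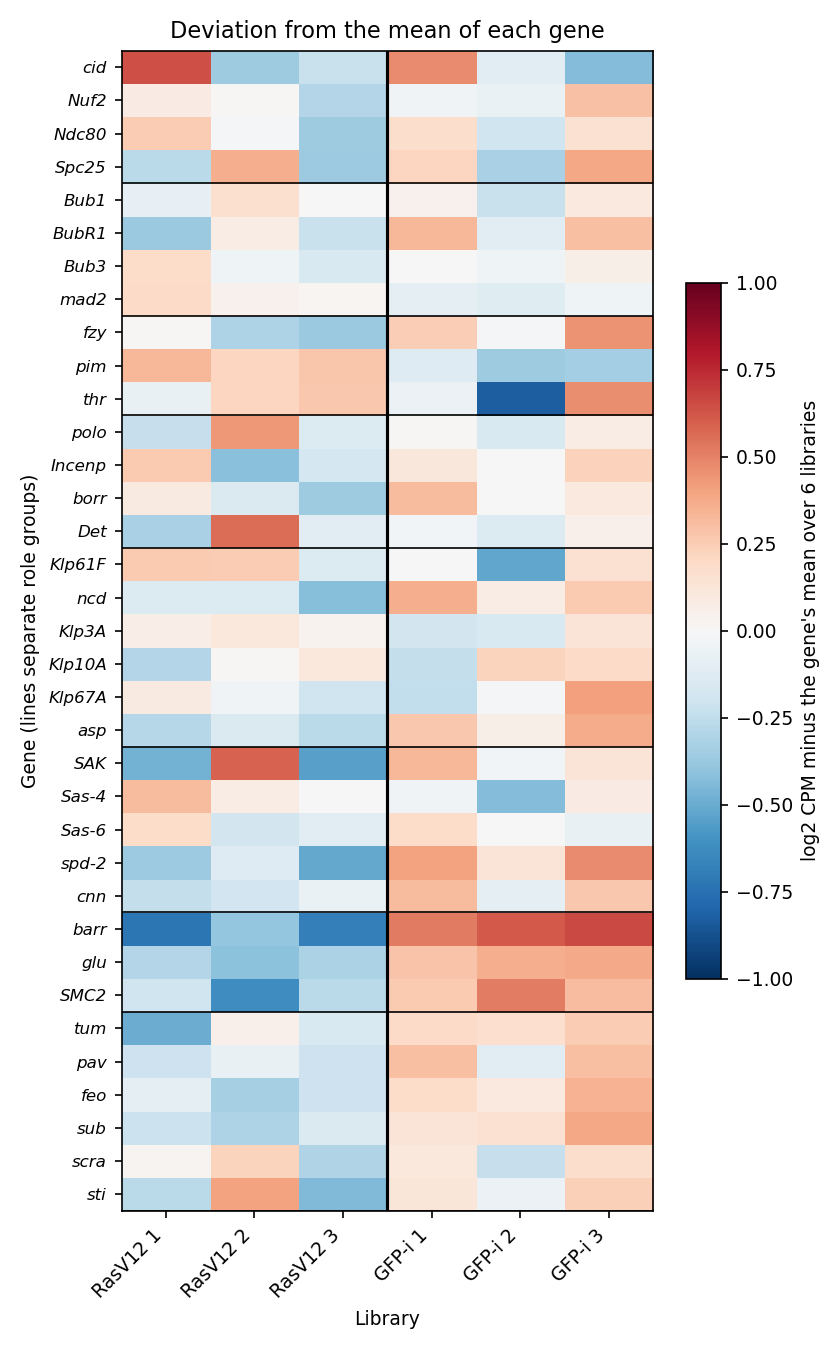
Deviation of each gene in each library from that gene's mean over the 6 libraries (log2 CPM, colour scale from -1 to 1), with libraries on the x axis, RasV12 left of GFP-i, and genes on the y axis in role groups separated by lines. The barr, glu and SMC2 block is blue in all RasV12 and red in all GFP-i libraries, whereas SAK, polo, Det and sti are red in RasV12 replicate 2 alone among the RasV12 libraries.

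Some markers of other cells in the disc were lower in RasV12, and others were level or higher. For comparison with the counts below, 9.15% of all tested genes were called higher and 5.68% lower. Haemocyte markers summed to 11.81 to 15.59 CPM in RasV12 cells, against 19.03 to 32.24 CPM in GFP-i cells. Of the 5 haemocyte markers tested, 2 fell, the collagen genes vkg and Col4a1 (log2 fold change -2.18 ± 0.35 and -1.72 ± 0.32, edgeR adjusted p = 0.00249 and 0.00570). Pxn, Sr-CI and srp did not pass (edgeR adjusted p = 0.562, 0.138 and 0.268). Hml, too low to be tested, averaged 0.53 CPM in either genotype, and eater and He were at or near 0 throughout. Muscle precursor markers summed to 59.98 to 76.42 CPM in RasV12 cells, against 76.80 to 116.8 CPM in GFP-i cells, and 3 of 6 fell, Him, htl and zfh1 (log2 fold change -3.44 ± 0.40, -2.04 ± 0.42 and -2.18 ± 0.52), of which zfh1 held in 3 of the 6 fits that left out a single library (edgeR adjusted p = 0.00552 to 0.0717). Mef2, which took the largest part of that sum, was at 46.8, 47.9 and 53.8 CPM in RasV12 and 35.1, 42.6 and 40.3 CPM in GFP-i, with every RasV12 value above every GFP-i value, and did not pass (log2 fold change 0.33 ± 0.14, edgeR adjusted p = 0.152). Tracheal markers overlapped between genotypes in sum, at 604.6 to 691.8 CPM in RasV12 cells, against 544.2 to 662.7 CPM in GFP-i cells, with 3 of 7 higher and 2 lower, led by serp, verm and btl (0.95 ± 0.16, 0.72 ± 0.13 and 1.19 ± 0.22) and by dys (-2.21 ± 0.40). Of these 4, verm missed the threshold in 1 of the 6 fits without a single library (edgeR adjusted p = 0.0651). Neuron and glia markers summed to 92.4 to 108.2 CPM in RasV12 cells, against 85.23 to 120.9 CPM in GFP-i cells, with moody higher and brp lower (0.70 ± 0.17 and -0.91 ± 0.22) among 7. The call of moody held in 2 of the 6 fits without a single library (edgeR adjusted p = 0.0373 to 0.139) and that of brp in 5 (0.0207 to 0.0506). Of the 9 wing disc and dorsal markers Dr was higher and nub and vg lower (0.87 ± 0.13, -3.58 ± 0.14 and -1.45 ± 0.20). The part of these cell types in the changes of barr, glu, SMC2 and spd-2 was not tested.

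The authors' deposited table marks barr as lower and calls none of the other 34 genes. Their calls have an adjusted p of at most 0.0496 and an absolute unshrunken log2 fold change of at least 1.024 in that table. These bounds were read from the calls themselves. Of the 9868 genes with an adjusted p, 2.55% were called lower by the authors. In the authors' deposited table the adjusted p was 4.37e-08 for barr, 1.54e-05 for glu, 5.56e-04 for SMC2, 0.0179 for spd-2 and 0.0229 for feo. There glu, SMC2, spd-2 and feo were thus under 0.05 without a call. Their unshrunken log2 fold changes were -0.71, -0.75, -0.71 and -0.45, smaller in size than that of any called gene.

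**Figure D5:**
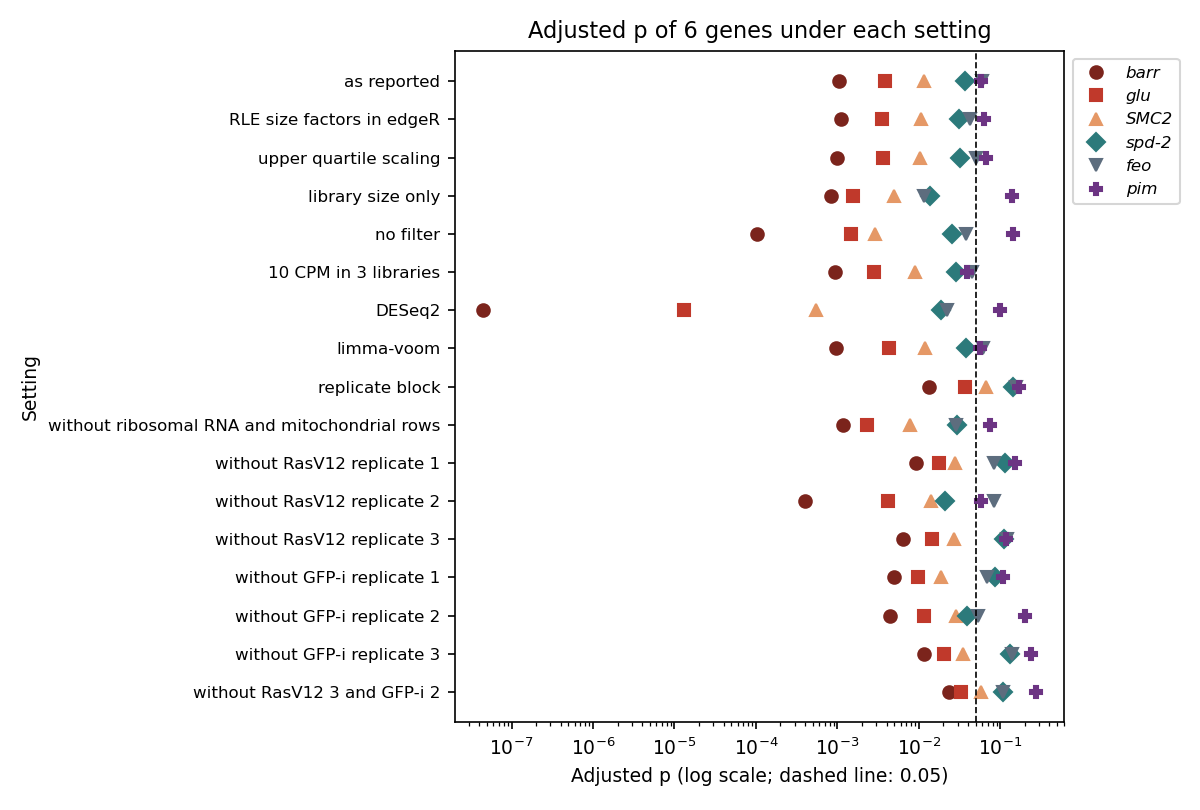
Adjusted p (x axis, log scale, dashed line at 0.05) of 6 genes under the reported fit and each of 16 alternative settings (y axis). The points of barr and glu lie left of the line in every setting, SMC2 crosses it in 2 settings, spd-2 in 6, and feo and pim lie mostly to its right.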

How the data were processed

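RNA from sorted dorsal wing disc cells was sequenced as 3' tags in 6 libraries, and 1 table of the whole series was deposited. The authors deposited raw counts per gene, which are whole numbers and not normalized. FastQC, Trimmomatic 0.33, STAR 2.3.0e, bedtools 2.17, DESeq2 and the genome build dm6 are named in the submitters' processing notes. The program that counted reads and its strand setting and annotation were not given in the sources used here. Per the file headers, baseMean is a signal deposited by the authors, an average of normalized counts. The authors' own comparison was deposited as log2 fold changes, a test score per gene, and p-value and adjusted columns, per the file headers.

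Genes were matched by the table's symbols or the supplied symbol table. Genotypes were compared in R 4.3.3 by edgeR 4.0.16 (TMM, filterByExpr, robust quasi-likelihood F test, two-sided, Benjamini-Hochberg adjustment, threshold 0.05), which tested 9134 of 14233 genes. Each standard error is the fold change over the root of its F statistic, and 95% intervals use the t distribution with the degrees of freedom of the fit. DESeq2 1.42.0 and limma-voom (limma 3.58.1), other scalings and filters, a replicate block and left-out libraries served as 16 alternatives. No pair of libraries agreed within sampling noise. Overlaps were sought among the 14233 genes with deposited counts, and genes outside that set were not searched. The Ensembl annotation gave each gene's own position and the exons of the genes that overlap it. Of 14018 shared identifiers, 98.4% had the coordinates of the deposited table.

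The 35 genes, their 8 role groups and the 13 context lists (142 of 147 genes matched, 138 tested; the others are not analysed here) were chosen with earlier results of these data known. Values per library are given for every member past the threshold and for the 2 members of each role group with the lowest p. From each context list, up to 4 genes past the threshold are named, or else the one with the lowest p; other context genes named, among them the condensin and cohesin subunits, dia, Nnf1a, Mef2, Cdk1 and the cyclins, were chosen after their values were seen. Lists are described by counts and medians, without a test.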

Additional observations from a re-analysis of the deposited data

How the results depend on the processing

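Leaving out 1 library at a time gave 3 to 4 members lower, against 3.21% to 6.11% of tested genes. It gave 0 members higher, against 4.61% to 9.96% of tested genes. These fits called 741 to 1521 genes, with a members' median log2 fold change of -0.278 to -0.04. Calls were fewest without GFP-i replicate 3, and there were 846 without RasV12 replicate 1. With GFP-i replicate 2 and RasV12 replicate 3 both left out, 2 members (barr and glu) were called lower, against 2.68% of tested genes. That fit called 678 genes in all. Scaling by library size only gave 9 members lower, against 9.97% of tested genes, adding fzy, sub, asp, ncd and feo. The members' median was then -0.319, while the median of all genes moved to -0.142. The filter at 10 CPM in 3 libraries tested 30 members and called 1 higher, pim, against 12.4% of tested genes. Under that filter barr, glu, SMC2, spd-2 and feo were called lower, against 8.6% of tested genes. In the other scalings, the other filter, DESeq2, limma-voom and the fit without ribosomal RNA and mitochondrial rows, barr, glu, SMC2 and spd-2 were called throughout, and the causes of these differences were not tested.

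A fit with the replicate number as a block called 2 members lower, barr and glu, against 2.42% of tested genes. It called 701 genes in all, with SMC2 at an edgeR adjusted p of 0.0659. No pairing by number was seen, as deviations of same-numbered libraries from their group means correlated at -0.034, -0.424 and -0.112 across genes. Deviations within a genotype are tied to one another through its mean, so these correlations are not independent and cannot exclude a pairing. Differently numbered libraries correlated at 0.562 for RasV12 replicate 3 with GFP-i replicate 2. The value was 0.432 for RasV12 replicate 2 with GFP-i replicate 1, and -0.508 to 0.106 for the remaining pairs. What such libraries share was not tested.

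Of 555 alternative member values 25 changed sign, in 11 members that never passed the threshold. With library size only these were cid (-0.0826), Bub1 (-0.1082), polo (-0.0804), Det (-0.0261) and Klp3A (-0.0239). Bub1 was also at -0.0051 with no filter, -3e-04 without ribosomal RNA and mitochondrial rows, and -0.0672 without those 2 libraries, where Bub3 was at 8e-04 and thr at -0.2001. With 1 library left out at a time, log2 fold changes ran from -0.0874 to 0.10 for Bub1, -0.10 to 0.0714 for Bub3, -0.18 to 0.30 for Det, -0.31 to 0.0214 for Klp67A, -0.24 to 0.0791 for Ndc80, -0.20 to 5e-04 for Sas-6, -0.34 to 0.33 for cid, -0.16 to 0.20 for polo, -0.18 to 0.10 for scra and -0.13 to 0.51 for thr.

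Depth limits cid and thr most, at 12 to 58 counts per library. In 5 members (Nuf2, mad2, fzy, SAK and Sas-6) the last 500 bases hold an exon of a more abundant gene on the other strand. Spc25 and ncd also overlap a more abundant gene on that strand, neither with an exon in those bases. These are grsm (4030 counts, against 865 for Spc25) and ca (1896 counts, against 1811 for ncd).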
